A study of Mus musculus with 6 samples.

Results

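The expression of 9 genes that mark the surface ectoderm, the outer epithelium of the embryo, was measured in the heads of E8.5 mouse embryos. The genes were chosen by name as transcription factors (Sp6, Grhl3, Grhl2 and Trp63), keratins (Krt8 and Krt18) and adhesion genes (Epcam, Cdh1 and Perp) of this tissue. All 9 matched a single gene ID among the 54532 in the count tables, and all 9 were among the 14008 genes with enough counts to be tested. Sf3b4 NCC mutant embryos, which lack Sf3b4 in the neural crest by design, were compared with WT embryos. Each group had 3 samples, each sample was RNA from 3 pooled heads, and the heads were taken before malformations could be seen. The sample titles call the mutants homozygous nulls, whereas the genotype labels name a neural crest mutant. The promoter that drives the recombinase, the strain and the completeness of the loss were not given.

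The surface ectoderm is a simple epithelium that covers the head, later gives rise to the epidermis and the cranial placodes, and exchanges signals with the neural crest beneath it. Its cells hold together through E-cadherin and desmosomes, contain filaments of paired keratins, and are specified by p63 and by the grainyhead-like factors, which are also needed for closure of the neural tube. Most of these genes are active in other epithelia too, among them the foregut endoderm, so their levels in a whole head are not a count of surface ectoderm cells. In a pooled tissue, more cells of a type and more RNA per cell cannot be told apart.

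Total counts ran from 7420956 to 12251910 in the mutant pools and from 6930827 to 11797020 in the WT pools. Sf3b4 itself averaged 60.4 ± 4.09 CPM (counts scaled to library size by TMM factors) in mutant pools and 71.4 ± 6.97 CPM in WT pools (SD, n = 3 each), with overlapping ranges, and did not pass the test (log2 fold change -0.24, SE 0.0918, edgeR adjusted p = 0.128). A count summed over the gene cannot resolve a deleted exon. Transcripts of 4 Y-linked genes were near 0, with 1 count each, in mutant replicate 3 and WT replicate 1, against 344 to 664 counts in the other 4 pools. Among all tested genes, 371 were higher and 543 lower in the mutant pools, which is 2.65% and 3.88% (6.52% in either direction), and 647 were higher and 536 lower once gene length and GC content were corrected for. Separate litters are not named in the labels, and each p-value therefore rests on the spread between these pools alone. Pools of each group differed in Y-linked reads, so they are not all the same embryos. How much of the spread is technical, or lies between litters, is not known.

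Promoter sequence (RefSeq, GRCm38.p6, the assembly of mm10) was at hand for 4 of the 9 genes, Epcam, Krt8, Krt18 and Grhl3. The windows run from 250 bases before to 50 bases after the annotated start and are shown because 3 of these genes lay higher in every mutant pool, and the fourth, Krt18, encodes the partner of Krt8. They lie at chr17:87635729-87636028 (plus strand) for Epcam, chr15:102004293-102004592 (minus strand) for Krt8, chr15:102027966-102028265 (plus strand) for Krt18 and chr4:135573583-135573882 (minus strand) for Grhl3. Capitals mark every match, on either strand, to the GRHL core ACCGGT, the GC box GGGCGG, the CACCC box and the TFAP2 motif GCCNNNGGC.
Epcam: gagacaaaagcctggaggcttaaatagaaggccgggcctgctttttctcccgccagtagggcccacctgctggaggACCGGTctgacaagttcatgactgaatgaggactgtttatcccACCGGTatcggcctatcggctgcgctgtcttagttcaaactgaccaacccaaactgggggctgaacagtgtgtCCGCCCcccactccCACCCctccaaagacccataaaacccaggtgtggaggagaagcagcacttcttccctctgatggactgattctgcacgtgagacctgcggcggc
Krt8: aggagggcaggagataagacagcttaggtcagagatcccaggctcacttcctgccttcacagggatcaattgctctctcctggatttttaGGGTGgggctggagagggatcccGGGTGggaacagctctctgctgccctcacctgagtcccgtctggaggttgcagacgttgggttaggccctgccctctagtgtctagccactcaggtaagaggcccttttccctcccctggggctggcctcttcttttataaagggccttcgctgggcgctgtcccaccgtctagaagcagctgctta
Krt18: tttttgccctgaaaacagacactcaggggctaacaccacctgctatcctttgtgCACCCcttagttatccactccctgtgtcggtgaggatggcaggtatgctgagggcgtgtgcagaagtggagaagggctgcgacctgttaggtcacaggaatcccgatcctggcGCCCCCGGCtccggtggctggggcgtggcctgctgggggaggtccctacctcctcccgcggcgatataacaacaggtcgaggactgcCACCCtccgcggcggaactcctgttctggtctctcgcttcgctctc
Grhl3: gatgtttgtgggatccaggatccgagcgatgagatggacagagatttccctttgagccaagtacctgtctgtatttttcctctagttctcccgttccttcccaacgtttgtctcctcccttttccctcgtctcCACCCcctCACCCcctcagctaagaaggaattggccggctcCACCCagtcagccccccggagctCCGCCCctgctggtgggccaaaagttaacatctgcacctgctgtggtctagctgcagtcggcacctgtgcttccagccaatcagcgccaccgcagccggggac

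The Epcam window holds the GRHL core at 2 places, both upstream of the start. This core lies within the longer GRHL motif, was added after the sequences were seen, and is found in 2.33% of 32851 promoter windows of the same length. The longer forms, AACCGGTT and AACCNGGTT, have no match in any of the 4 windows and are found in 0.146% and 0.271% of all windows. The Krt18 window holds 1 TFAP2 motif, present in 16.6% of all windows. Epcam and Grhl3 each hold 1 GC box (35.7% of windows), and all 4 hold the CACCC box, which 57.5% of windows hold. The p53 family decamer motif has no match in the 4 windows and one in 8.36% of all windows. These matches describe letters in short windows and do not show binding.

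Sp6 and Perp rose in the mutant heads, by 2.12-fold and 2.10-fold. The other 7 genes did not pass the test, although 8 of the 9 had a positive log2 fold change, where 50.3% of all tested genes did. The 2 that rose of 9 stand beside 2.65% of all tested genes called higher, and no member was called lower. In 5 members, Sp6, Perp, Epcam, Krt8 and Grhl3, every mutant pool lay above every WT pool, a separation in that direction found in 13.8% of tested genes. The same 5 passed at an adjusted p under 0.1, beside 4.73% of tested genes called higher at that threshold, and 7 had an unadjusted p under 0.05, all of them higher, beside 23.2% of tested genes with such a p in either direction. The median log2 fold change of the 9 genes was 0.29, and that of all tested genes was 0.00. The summed level of the 9 genes was 488.9, 530.5 and 541.4 CPM in mutant replicates 1 to 3, against 426.3, 406.4 and 433.8 CPM in WT replicates 1 to 3, so the sums did not overlap. Krt8 and Krt18, neither of which passed, made up most of the sum. Their means were 162.4 and 130.2 of 520.3 CPM in mutant pools, and 132.5 and 110.6 of 422.2 CPM in WT pools.

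**Figure D1:**
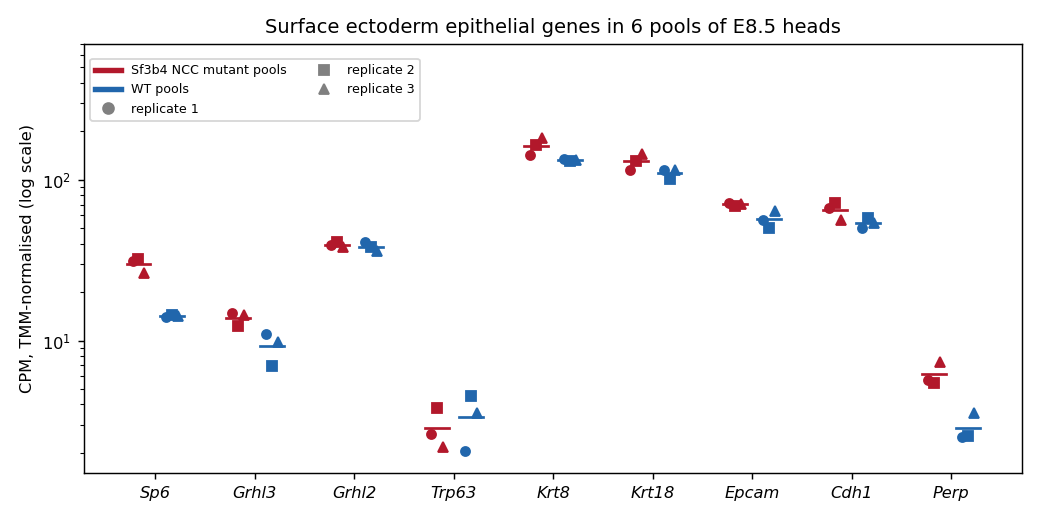
TMM-normalised CPM (log axis) of the 9 genes in each of 3 Sf3b4 NCC mutant pools (red) and 3 WT pools (blue), with a bar at each group's mean and a marker shape for each replicate number. Sp6 and Perp have the widest gap between groups, while the points of Grhl2 and Trp63 intermingle.

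Among the transcription factors, Sp6 changed most. Sp6 (ENSMUSG00000038560, mm10 chromosome 11, 97013394 to 97024734, plus strand) encodes a zinc finger factor of ectodermal organs such as tooth and limb bud. It was read at 31.4, 32.2 and 26.4 CPM in the mutant pools, against 14.1, 14.4 and 14.2 CPM in the WT pools. Every mutant pool was far above the WT pools, which lay close together. Sp6 averaged 30.0 ± 3.15 CPM in mutant pools and 14.2 ± 0.163 CPM in WT pools (SD, n = 3 each). Its log2 fold change was 1.08 (SE 0.112, edgeR adjusted p = 4.17e-05). Of its exonic bases, 86.7% also lie in exons of Gm11532, a transcript on the opposite strand. The use of strand in counting is not stated, so the 2 genes cannot be told apart over that stretch. Gm11532 itself had 9, 11 and 0 counts in the mutant pools, against 3, 0 and 0 in the WT pools, while Sp6 had 884 counts in the mutant pools together and 419 in the WT pools.

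Grhl3 (ENSMUSG00000037188, chromosome 4, 135541888 to 135573630, minus strand), the grainyhead-like factor of the epidermal barrier and of neural tube closure, was read at 14.8, 12.3 and 14.5 CPM in the mutant pools and at 11.03, 6.92 and 9.73 CPM in the WT pools. The groups did not overlap, but WT replicate 1 came close to mutant replicate 2. The log2 fold change of 0.56 (SE 0.164) fell just short of the threshold (edgeR adjusted p = 0.051). Without WT replicate 1, its highest WT pool, it passed, at 0.71 (edgeR adjusted p = 0.0189). With any other pool left out it did not pass (edgeR adjusted p up to 0.214).

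Grhl2 (ENSMUSG00000022286, chromosome 15, 37233036 to 37363569, plus strand), its paralogue, which controls Cdh1 and other junction genes, differed little between the groups. It was read at 39.5, 41.0 and 38.1 CPM in the mutant pools and at 40.8, 38.4 and 36.1 CPM in the WT pools, with overlapping ranges. The log2 fold change was 0.04 with a 95% interval of -0.15 to 0.23 (edgeR adjusted p = 0.818).

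Trp63 (ENSMUSG00000022510, chromosome 16, 25683763 to 25892102, plus strand) encodes p63, the regulator of stratified epithelium. Its mean CPM was the lowest of the 9 in mutant pools, while that of Perp was the lowest in WT pools. Trp63 had 32, 36 and 16 counts in the mutant pools and 22, 32 and 41 in the WT pools, that is 2.63, 3.79 and 2.17 CPM against 2.04, 4.52 and 3.53 CPM. The pools of the groups intermingled. At this depth the 95% interval of the log2 fold change, -0.83 to 0.46, spans changes of either sign, and a change within it cannot be told from none (edgeR adjusted p = 0.76).

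The keratins gave the highest levels of the 9. Krt8 (ENSMUSG00000049382, chromosome 15, 101996698 to 102004482, minus strand), the type II keratin of simple epithelia, was read at 142.3, 163.8 and 180.9 CPM in the mutant pools, against 134.4, 130.2 and 132.9 CPM in the WT pools. The groups did not overlap, but mutant replicate 1 lay only a little above the WT pools. The means were 162.4 ± 19.3 CPM in mutant pools and 132.5 ± 2.09 CPM in WT pools (SD, n = 3 each). The log2 fold change of 0.29 (SE 0.0848) did not pass (edgeR adjusted p = 0.052). Without mutant replicate 1, the lowest mutant pool, it passed at 0.38 (edgeR adjusted p = 0.0448), but not with any other pool left out (edgeR adjusted p up to 0.217).

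Krt18 (ENSMUSG00000023043, chromosome 15, 102028180 to 102032027, plus strand) encodes the type I partner with which Krt8 protein forms filaments. It was read at 114.4, 131.3 and 144.9 CPM in the mutant pools and at 114.9, 101.1 and 115.7 CPM in the WT pools. Mutant replicate 1 lay within the WT range, and the log2 fold change was 0.23 (SE 0.0896, edgeR adjusted p = 0.138). The 2 keratins kept the same order of mutant pools, with replicate 3 the highest and replicate 1 the lowest.

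Among the adhesion genes, Perp rose. Perp (ENSMUSG00000019851, chromosome 10, 18845020 to 18857073, plus strand) encodes a tetraspan protein of desmosomes and is a known target of both p63 and p53. It had 69, 52 and 54 counts in the mutant pools and 27, 18 and 41 in the WT pools. These counts correspond to 5.66, 5.47 and 7.31 CPM in the mutant pools, against 2.50, 2.54 and 3.53 CPM in the WT pools, and the groups did not overlap. The log2 fold change was 1.07 (SE 0.223, edgeR adjusted p = 0.0106). Without mutant replicate 3 the call was lost, at 0.94 (edgeR adjusted p = 0.0551), and among the 4 pools that had Y-linked reads it was 0.84 (edgeR adjusted p = 0.106).

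Targets of p53 rose in the same pools. Of 20 tested p53 targets other than Perp, 19 rose and none fell, beside 2.65% of all tested genes called higher. Their median log2 fold change was 1.29. Sesn2, Phlda3, Plk2 and Pmaip1 had the smallest p values among those that rose. The summed level of all 20 targets was 1415, 1392 and 1045 CPM in mutant replicates 1 to 3, against 504.9, 540.8 and 532.1 CPM in the WT pools. Perp was highest in mutant replicate 3, the mutant pool in which this sum was lowest. The part of the p53 targets in the rise of Perp was not tested.

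Epcam (ENSMUSG00000045394, chromosome 17, 87635979 to 87651129, plus strand), the epithelial cell adhesion molecule, was read at 71.3, 68.8 and 70.7 CPM in the mutant pools, against 56.5, 50.4 and 64.0 CPM in the WT pools. The mutant pools lay close together above all WT pools. The log2 fold change of 0.30 (SE 0.0913) did not pass (edgeR adjusted p = 0.0646). Without WT replicate 3, the highest WT pool, it passed at 0.39 (edgeR adjusted p = 0.0116), but not with any other pool left out (edgeR adjusted p up to 0.234).

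Cdh1 (ENSMUSG00000000303, chromosome 8, 106603351 to 106670246, plus strand), which encodes E-cadherin, the main adhesion molecule of epithelia, was read at 66.8, 71.8 and 56.5 CPM in the mutant pools and at 50.04, 57.8 and 54.2 CPM in the WT pools. The groups overlapped, since mutant replicate 3 was below WT replicate 2. The log2 fold change was 0.28 (SE 0.0975, edgeR adjusted p = 0.105).

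**Figure D2:**
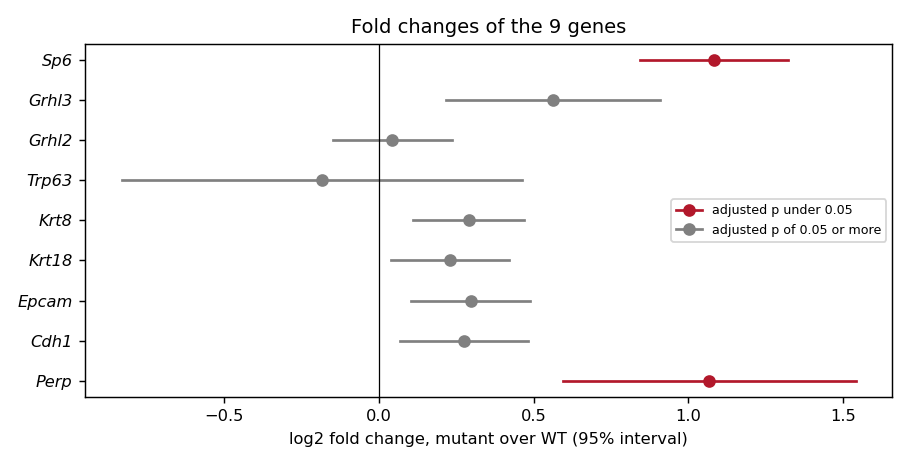
Log2 fold change of each gene, mutant over WT, as a point with its 95% interval from the edgeR fit, red where the adjusted p is under 0.05. Sp6 (1.08) and Perp (1.07) stand apart, Epcam, Cdh1, Krt8 and Krt18 lie between 0.23 and 0.30, and the interval of Trp63 is the widest.

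Levels can be compared between genes only per length, here as CPM per kilobase of exon, averaged over 3 pools of a group. On this scale Krt18 (90.6 ± 10.6 in mutant pools, 76.9 ± 5.69 in WT pools) and Krt8 (82.9 ± 9.88 in mutant pools, 67.7 ± 1.07 in WT pools) led, with Krt18 above Krt8 in each of the 6 pools. Krt18 made up 37.6% of the summed level of the 9 genes in mutant pools and 39.3% in WT pools, and Krt8 34.4% in mutant pools and 34.6% in WT pools. Epcam followed at 32.0 ± 0.596 in mutant pools and 26.0 ± 3.09 in WT pools, and Cdh1 at 14.2 ± 1.71 in mutant pools and 11.8 ± 0.847 in WT pools. Sp6 came next in mutant pools, at 7.81 ± 0.819, whereas in WT pools its 3.71 ± 0.0425 lay below Grhl2 (4.59 ± 0.173 in mutant pools, 4.46 ± 0.272 in WT pools). The place of Sp6 in this order is uncertain, since 86.7% of the exonic bases it is scaled by also lie in Gm11532 exons and strand use is not stated. Grhl3 stood at 4.97 ± 0.483 in mutant pools and 3.31 ± 0.752 in WT pools, so it did not differ from Grhl2 beyond the spread in mutant pools, nor from Sp6 in WT pools. Perp (3.15 ± 0.518 in mutant pools, 1.46 ± 0.299 in WT pools) and Trp63 (0.341 ± 0.0996 in mutant pools, 0.401 ± 0.149 in WT pools) were lowest.

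Ratios within a pool show how far the genes moved apart, free of the scaling between pools. Ratios were taken on the per-kilobase scale for 10 pairs, with an exact two-sided permutation test of the log2 ratio over the 6 pools, which with 3 pools against 3 cannot give a p below 0.1. The ratio of Sp6 to Epcam was 0.252, 0.267 and 0.213 in the mutant pools, against 0.142, 0.163 and 0.127 in the WT pools. That of Perp to Epcam was 0.0893, 0.0894 and 0.116 in the mutant pools, against 0.0498, 0.0567 and 0.0621 in the WT pools. The groups did not overlap in either ratio, so both genes stood higher relative to Epcam in every mutant pool. The ratio of Grhl2 to Grhl3 was 0.865, 1.08 and 0.85 in the mutant pools, against 1.20, 1.80 and 1.20 in the WT pools, also without overlap. The ratio of Krt8 to Krt18 was 0.913, 0.916 and 0.916 in the mutant pools and 0.858, 0.945 and 0.843 in the WT pools, with the mutant pools inside the WT range. The exact permutation p was 0.1 for each of the 3 ratios without overlap and 0.4 for the keratins (adjusted over the 10 ratios, 0.333 and 0.571). Relative to Epcam, Grhl3, Grhl2, Cdh1, Krt8, Krt18 and Trp63 gave overlapping groups (exact permutation p from 0.2 to 0.8).

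**Figure D3:**
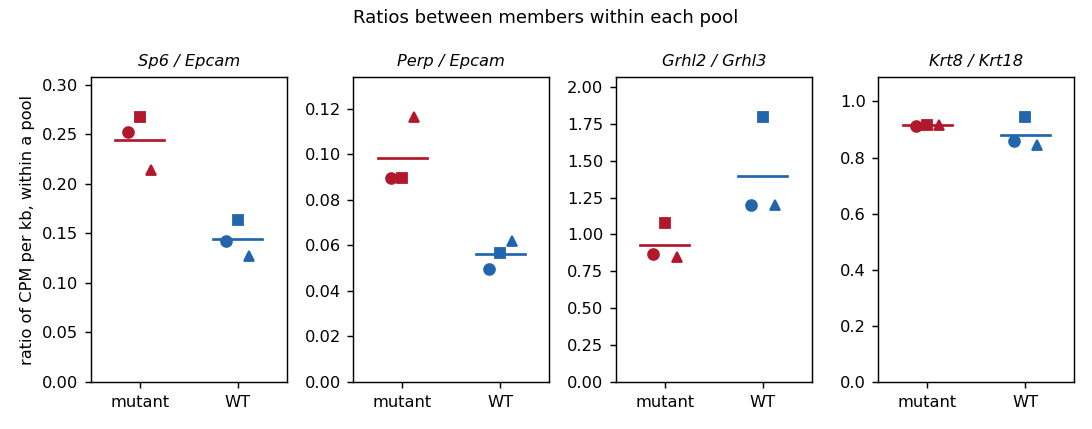
Ratios of CPM per kilobase between 2 genes within each pool, for mutant (red) and WT (blue) pools, with a bar at each mean, a marker shape for each replicate number and axes that start at 0. Sp6 and Perp relative to Epcam are higher, and Grhl2 relative to Grhl3 lower, in every mutant pool, while the keratin ratio of the mutant pools lies within the WT range.

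No shared variation of the 9 genes within a genotype was resolved. After each group's mean was taken out, Pearson's r of log2 CPM over the 6 pools was positive in 16 of 36 pairs of members, with a median of -0.16 and a range of -0.89 to 0.90. The highest value was that of Krt8 with Krt18 (0.90), followed by Sp6 with Cdh1 (also 0.90), and the lowest was that of Perp with Grhl2. The points of each correlation share libraries and their scaling. With each group's mean taken out, 6 pools give each r little precision and cannot exclude shared variation. No single pool led: among the mutant pools, replicates 1, 2 and 3 held the highest value of 2, 4 and 3 members, and among the WT pools each held the highest of 3.

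The wider epithelial programme was examined in 5 lists of 70 other genes, of which 62 were tested. Of these, 6 rose, 2 fell and 54 did not pass, beside 2.65% called higher and 3.88% called lower among all tested genes. The 2 that fell are near that share. Fold changes were positive in 43 of the 62 (50.3% over all tested genes), with a median log2 fold change of 0.20. Every mutant pool lay above every WT pool in 24 of the 62 and below every WT pool in 6. Over all 14008 tested genes, these separations were found in 1939 and 2020. The junction and adhesion list had the most calls. Of its 22 genes 4 rose and none fell (2.65% of all tested genes rose), the median was 0.22, and in 11 every mutant pool lay above every WT pool (13.8% of all tested genes). Cldn6, a claudin of early epithelia, averaged 96.2 ± 0.964 CPM in mutant pools and 66.9 ± 8.49 CPM in WT pools (SD, n = 3 each), and rose by 0.52 on the log2 scale (SE 0.0896, edgeR adjusted p = 0.00292). Cldn4 (0.57) and Cldn7 (0.47), also tight junction claudins, and F11r (0.38), which encodes the junctional adhesion molecule JAM-A, rose as well. Dsp, which encodes the desmosomal plaque protein desmoplakin, did not pass, at 95.9, 106.7 and 93.2 CPM in the mutant pools and 84.1, 87.4 and 81.6 CPM in the WT pools (log2 fold change 0.23, edgeR adjusted p = 0.0972). Cdh3, the P-cadherin gene, had a log2 fold change of -0.03. Leaving out any 1 pool did not end the call of Cldn6. That of Cldn4 was lost without WT replicate 2 (adjusted p = 0.0544), mutant replicate 1 (0.0758) or mutant replicate 3 (0.0602). The calls of Cldn7 and F11r were lost without WT replicate 2 or any 1 mutant pool, and that of Cldn7 also without WT replicate 1, with adjusted p values of 0.0551 to 0.308.

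Of 14 tested genes of epithelial splicing, surface proteases and trafficking 2 rose, none fell and 12 did not pass, beside 2.65% of all tested genes called higher. The median log2 fold change was 0.30, 13 fold changes were positive (50.3% over all tested genes), and in 10 genes every mutant pool lay above every WT pool (13.8% over all tested genes). Fam83h, which encodes a protein that organises keratin filaments, rose by 0.49 on the log2 scale (SE 0.124, edgeR adjusted p = 0.0279), and Spint1, an inhibitor of the matriptase protease, by 0.34 (SE 0.0978, edgeR adjusted p = 0.0499). Both calls were lost without WT replicate 2 or any 1 mutant pool (adjusted p from 0.0636 to 0.201). Esrp1, the epithelial splicing regulator, did not pass (0.19, edgeR adjusted p = 0.213), nor did Prss8, a membrane protease gene (0.33, edgeR adjusted p = 0.0634).

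Of 14 tested epithelial transcription factors outside the 9, none rose and 1 fell (3.88% of all tested genes fell), with a median log2 fold change of 0.08. The one that fell was Tbx3, a T-box factor (-0.61, SE 0.159, edgeR adjusted p = 0.0316), and its call was lost without any 1 pool other than WT replicate 3 (adjusted p from 0.0744 to 0.179). Grhl1, the remaining grainyhead-like factor, was read at 3.20, 2.63 and 4.06 CPM in the mutant pools and 2.13, 2.54 and 1.72 CPM in the WT pools, and did not pass (0.64, SE 0.273, edgeR adjusted p = 0.174). Tfap2a, a factor of both surface ectoderm and neural crest, lay lower in every mutant pool but did not pass (-0.29, edgeR adjusted p = 0.187). Zfp750, an epidermal differentiation factor, fell below the filter on low counts and was singled out after its values were seen. It had 25, 21 and 6 counts in the mutant pools, against 2, 1 and 5 in the WT pools, and the groups did not overlap. With no filter on low counts its log2 fold change was 2.64 (edgeR adjusted p = 9.58e-05).

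Other keratins gave no call: of 8 listed, 3 were tested and none passed. Krt19 had a log2 fold change of 0.25 (edgeR adjusted p = 0.249) and Krt7 one of -0.21 (edgeR adjusted p = 0.31), both keratins of simple epithelia. Krt5 and Krt14, the keratin pair of stratified epidermis, stayed under 1 CPM in every pool and were not tested. Among 9 tested genes of basal epithelium and basement membrane none rose and 1 fell, beside the same 3.88%, with a median log2 fold change of -0.20. That gene was Itga6, an integrin subunit also found in neural tissue (-0.33, SE 0.0782, edgeR adjusted p = 0.0216), whose call was lost without WT replicate 2, mutant replicate 1 or mutant replicate 2 (adjusted p from 0.111 to 0.144).

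**Figure D4:**
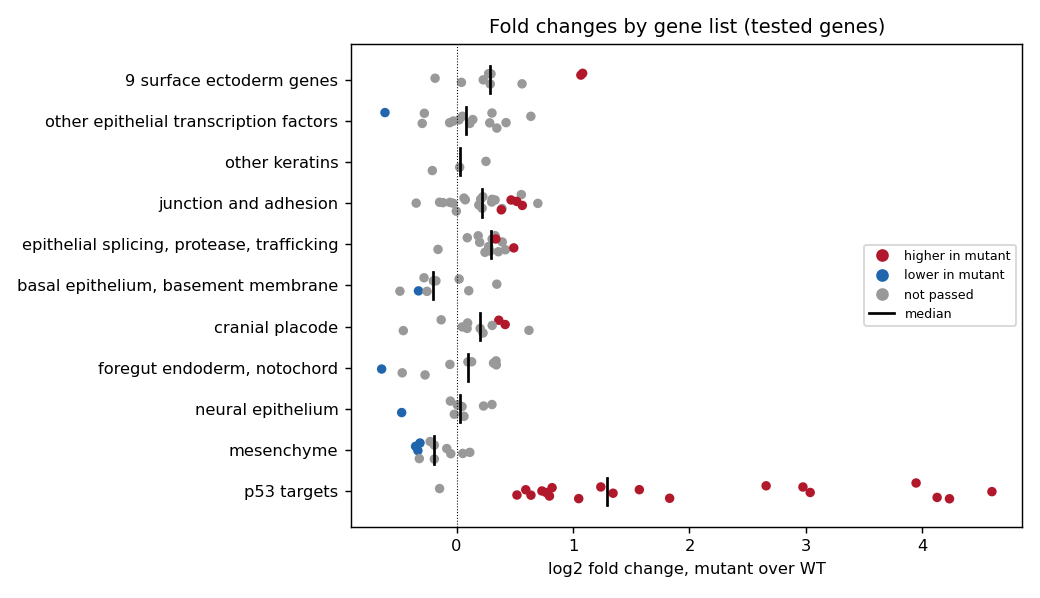
Log2 fold changes, mutant over WT, of the tested genes of each list, 1 point per gene, red where higher and blue where lower at an adjusted p under 0.05, with a black bar at the median. The medians of the 9 genes (0.29) and of the epithelial splicing, protease and trafficking genes (0.30) lie right of 0. That of mesenchyme (-0.19) lies left, and that of p53 targets (1.29) lies farthest right.

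Markers of other tissues in the dissected heads were read beside these genes. Over 11 tested markers of cranial placodes, thickenings of the same ectoderm, the median log2 fold change was 0.20, and the summed level of the listed markers was 292.4 to 330.4 CPM in mutant pools and 264.6 to 286.7 CPM in WT pools, without overlap. Of 9 tested genes of foregut endoderm and notochord, tissues that also express Epcam, Cdh1 and simple keratins, none rose and 1, Trh, which encodes thyrotropin-releasing hormone, fell by 0.64 on the log2 scale (edgeR adjusted p = 0.015), beside 3.88% of all tested genes called lower. Their summed level was 57.7 to 67.4 CPM in mutant pools and 60.3 to 70.0 CPM in WT pools, with overlap, and Nepn was at 0 in all pools. That sum includes Trh, at 13.4 ± 2.09 CPM in mutant pools and 20.6 ± 3.33 CPM in WT pools, whose fall lowers the mutant sums. The median log2 fold change of the 9 was 0.10, and 5 were positive (50.3% over all tested genes). Shh lay higher in every mutant pool (0.32) but did not pass (edgeR adjusted p = 0.224). Yolk sac endoderm was near 0, with a sum over 10 genes of 5.75 to 10.6 CPM in mutant pools and 6.76 to 8.19 CPM in WT pools, and Ttr and Afp stayed under 1 CPM in every pool, while Trf was at 0 in all. Of 8 listed trophoblast markers 4 were tested, and none of those rose. Elf5 (0.79, edgeR adjusted p = 0.253) and Plac1 (0.55, edgeR adjusted p = 0.469) had positive log2 fold changes, and Hand1 (-0.19) and Peg10 negative ones. Every mutant pool of Elf5 lay above every WT pool, at 44 counts in the mutant pools together and 26 in the WT pools. The other 4 had at most 14 counts in a pool, among them Ascl2, with 14, 12 and 5 counts in the mutant pools and 3, 1 and 8 in the WT pools. Gcm1, Tpbpa and Prl3d1 had 4, 2 and 8 counts in the mutant pools together and 0, 0 and 3 in the WT pools. Peg10, an imprinted gene active well beyond trophoblast, made up nearly all of the summed level of the 8, 173.4 to 202.8 CPM in mutant pools and 245.9 to 276.6 CPM in WT pools. Peg10 fell by 0.52 on the log2 scale (edgeR adjusted p = 0.00138).

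No tested marker of mesenchyme or neural epithelium rose. Of 11 mesenchyme markers none rose and 3 fell, beside 3.88% of all tested genes called lower. The 3 were Zeb2 (-0.33), Fn1 (-0.35) and Pdgfra (-0.31), of which Zeb2 encodes a repressor of Cdh1 and other epithelial genes. The summed level of mesenchyme markers was 1098 to 1163 CPM in mutant pools and 1275 to 1372 CPM in WT pools, without overlap. All 3 calls were lost without WT replicate 2 or mutant replicate 1, and when length and GC content were corrected for (adjusted p from 0.0621 to 0.17). Those of Zeb2 and Fn1 were also lost without mutant replicate 3 (0.121 and 0.1), and those of Zeb2 and Pdgfra without mutant replicate 2 (0.0519 and 0.129). Of 8 neural epithelium markers 1, Nes, fell by 0.47 on the log2 scale (edgeR adjusted p = 0.0021), beside the same 3.88%, and their summed level was 714.9 to 782.4 CPM in mutant pools and 746.8 to 789.6 CPM in WT pools. The log2 fold change was positive in 5 of these 8 (50.3% over all tested genes), with a median of 0.03. Lhx2 lay higher in every mutant pool (0.30) but did not pass (edgeR adjusted p = 0.124), and Nes lay lower in every mutant pool. Whether these differences in other tissues had a part in the levels of the 9 genes was not tested.

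Outside all lists, the genes whose log2 CPM followed the mean standardised profile of the 9 genes most closely over the 6 pools were Rbm17, Grpel1, Pop7, Wrb and Zfp105, with Pearson's r of 0.992 to 0.995. They were taken from protein-coding genes with a mean of at least 5 CPM. The profile itself differs between the genotypes, so this likeness includes that difference.

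**Figure D5:**
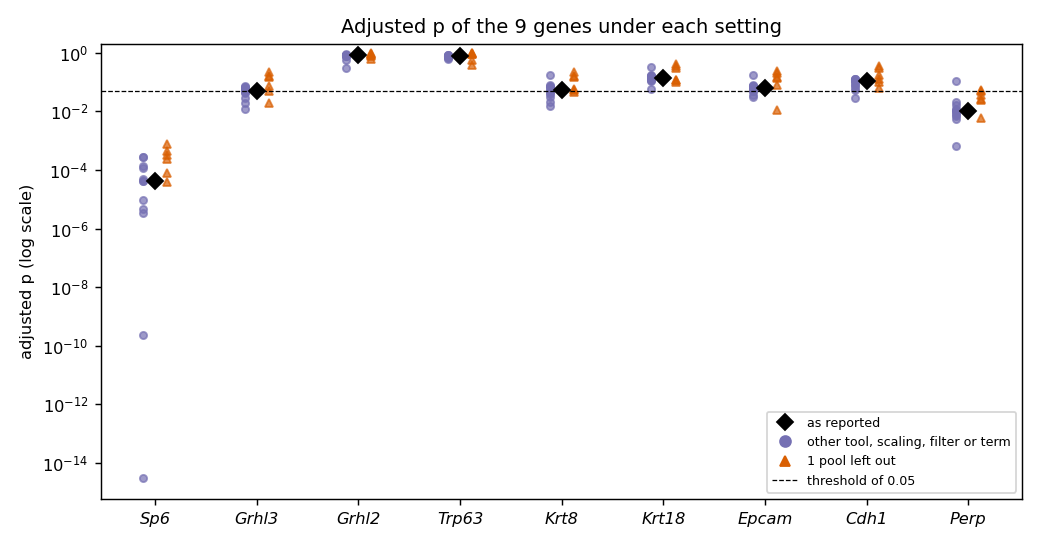
Adjusted p (log axis) of each gene as reported (black diamonds), under other tools, scalings, filters or model terms (purple circles) and with 1 pool left out (orange triangles), with a dashed line at 0.05. Sp6 lies below the line throughout, Perp does except in 2 settings, and Grhl3, Krt8 and Epcam fall on both sides of it.

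The call of Sp6 held under all 18 other settings at the same threshold, with log2 fold changes of 1.04 to 1.16 and a highest adjusted p of 0.000749 (edgeR). Perp passed in 16 of the 18, with log2 fold changes of 0.84 to 1.27. Grhl3 passed in 7, Krt8 in 6, Epcam in 5 and Cdh1 in 1, while Krt18, Grhl2 and Trp63 passed in none. The fold changes of Grhl3 (0.43 to 0.71), Epcam (0.23 to 0.39), Krt8 (0.21 to 0.38), Cdh1 (0.21 to 0.36) and Krt18 (0.15 to 0.32) were positive in every setting.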

How the data were processed

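Libraries were prepared from total RNA with an Illumina TruSeq kit, per the labels' protocols. The authors deposited raw counts per Ensembl gene, not normalised, with 1 file per pool. Reads were placed on mm10 according to the submitters' processing notes. No aligner, counting program, annotation or strand setting is named in the sources used here. Of 54532 IDs 54495 matched GENCODE M21 (GRCm38), which gave symbols, places and exon lengths. The filterByExpr function of edgeR kept 14008 genes, and TMM factors set the scale. The test was edgeR's quasi-likelihood F test with robust estimation (two-sided), with Benjamini-Hochberg adjustment over all tested genes and a threshold of 0.05. The SE is the log2 fold change divided by the square root of F, and 95% intervals use the fit's degrees of freedom. No pools of a group were alike to within counting noise (chi-square over its degrees of freedom, 2.81 to 9.19). The steps were tested on simulated data.

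The 9 genes, the other lists, the alternatives and the motifs were chosen with earlier results of these data known. Named are the 9 genes, Sf3b4, from each list the genes that passed (at most 4, ordered by p) or, where none did, the 2 of smallest p, and the 5 genes most alike in pattern; calls of single placode markers are not reported here, and further list members are examples chosen after their values were seen. DESeq2 1.42.0 and limma 3.58.1 served as alternatives to edgeR 4.0.16, in R 4.3.3, and figures used matplotlib 3.10.9.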

Additional observations from a re-analysis of the deposited data

How the results depend on the processing

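Of the 9 genes, 2 were higher as reported, 5 with upper-quartile factors, no filter on low counts, the length and GC correction or a threshold of 0.1, 6 with Y-linked reads as a covariate, 1 among only those pools that had Y-linked reads, and 1 to 3 with 1 pool left out. None was lower in any setting. Over all genes, 371 were higher as reported, 624 with no filter, 647 with the length and GC correction, 663 at a threshold of 0.1, 767 with the covariate and 107 to 890 with 1 pool left out. The 543 lower genes became 887 at a threshold of 0.1, 891 with the covariate, 286 among pools that had Y-linked reads, and 123 to 920 with 1 pool left out. Of the wider epithelial genes 6 were higher as reported, 3 with DESeq2, limma-voom, library size alone or a fit without robust estimation, 11 at a threshold of 0.1 or with the covariate, 13 with the length and GC correction and 1 to 9 with 1 pool left out. Those lower, 2 as reported, were 1 with DESeq2 or among pools that had Y-linked reads, and 0 to 3 with 1 pool left out. A filter of 1 CPM in 3 pools kept the same genes. With 1 pool left out, log2 fold changes of either sign were found for Grhl2 (-0.004 to 0.093, negative without WT replicate 3), Trp63 (-0.454 to 0.048, positive without WT replicate 2), Apob (-0.082 to 0.268) and Rbp4 (-0.469 to 0.2), 2 yolk sac genes, and Apob stood at -0.226 among pools that had Y-linked reads. None of these 4 genes passed as reported. The cause of these shifts was not tested. Same-numbered pools did not deviate together (r of -0.161, 0.0515 and -0.0598), and the pools were not treated as pairs. So few correlations cannot exclude a pairing by number. With the replicate block 3 of the 9 genes and 2 wider epithelial genes were higher. Depth limits Trp63 and Perp, with 16 to 69 counts per pool.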
